A study of Mus musculus with 6 samples.

Results

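Haemoglobin and red cell genes were followed across 6 liver tumours of mice, with 1 bulk library of polyadenylated RNA from each. The genes were picked by name: the adult globin genes Hba-a1, Hba-a2, Hbb-bs and Hbb-bt, and Alas2, Slc4a1, Ahsp, Klf1 and Epor. Of these 9 genes, 8 were found among the 55291 genes measured, and all 8 were well enough expressed to be tested. Ahsp was not analysed here. The MKO_PD1 group holds 3 tumours from TREM2-MKO mice, in which Trem2 was knocked out in myeloid cells, and the Cre_PD1 group holds 3 tumours from LysM-Cre mice. Mice of both groups had received anti-PD-1, an antibody that blocks an inhibitory receptor of T cells, and all tumours were RIL-175/PD-1R tumours, grown from a mouse liver cancer line. The labels give neither age nor sex, and leave the term PD-1R unexplained. LysM-Cre drives recombination in macrophages, monocytes and neutrophils, so red cell precursors are not among the cells it is used to target.

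Red cells carry oxygen on haemoglobin, which joins alpha globin and beta globin chains with haem. Their precursors mature in bone marrow, and in mice also in spleen, under the hormone erythropoietin. In these precursors Gata1, Tal1 and Klf1 switch on the globin genes, the haem pathway and the genes of the red cell membrane. Mature mouse red cells have lost the nucleus, while the youngest ones in blood, the reticulocytes, still hold globin mRNA. A bulk library of a tumour therefore contains RNA of the blood within it. In bulk RNA, fewer cells of a type and less RNA per cell cannot be told apart, and this holds for every level below.

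The libraries held 26747507 to 34265170 reads recovered from the deposited values. Levels are in TPM (transcripts per 1000000, that is, reads per exon length scaled to that total in each library) and group values are mean ± SD of 3 libraries. Log2 differences are of TPM + 1, MKO_PD1 minus Cre_PD1, from limma with a two-sided test, adjusted by the Benjamini-Hochberg method over the 16506 genes that reached 1 TPM in 3 or more libraries. The median difference of all tested genes was -0.42 on this scale and -0.01 with median-of-ratios scaling, and both values are background to the differences below. Trem2, the targeted gene, was at 7.68, 17.97 and 6.81 TPM in MKO_PD1 replicates 1, 2 and 3, against 10.5, 16.5 and 14.9 TPM in Cre_PD1. The groups overlapped, and the log2 difference of -0.44 did not pass (limma adjusted p = 0.432). It was -0.0068 with median-of-ratios scaling, and without MKO_PD1 replicate 2 it was -0.84 and passed (limma adjusted p = 0.0450), in a fit where 38.0% of all tested genes passed downwards and 7.88% upwards. Which part of the gene was deleted is not given, so whole-gene reads do not check the deletion. The library labelled MKO_PD1 replicate 2 had the highest Trem2 level of all 6, and results that change without it are given both ways.

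The globin genes come as near-identical pairs, which limits what can be read from each copy. Hba-a1 (ENSMUSG00000069919.7, chromosome 11, 32283511 to 32284465, plus strand, GRCm38) and Hba-a2 (ENSMUSG00000069917.7, chromosome 11, 32296489 to 32297298, plus strand) encode alpha globin. Hbb-bs (ENSMUSG00000052305.6, chromosome 7, 103826534 to 103828096, minus strand) and Hbb-bt (ENSMUSG00000073940.3, chromosome 7, 103812524 to 103813996, minus strand) encode beta globin. The alpha pair differed at 1 of 429 coding bases (C381T, Hba-a1 to Hba-a2) and the beta pair at 1 of 444 coding bases (C417T, Hbb-bs to Hbb-bt), counting from 1 at the first base of the start codon. The stretches around these positions are shown because they are all that separates the copies within the coding sequence. They are coding bases 351 to 410 of the alpha genes and 387 to 444 of the beta genes, from GENCODE M21 transcripts, with the differing base in capitals.
Hba-a1: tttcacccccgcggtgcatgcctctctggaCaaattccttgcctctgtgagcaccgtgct
Hba-a2: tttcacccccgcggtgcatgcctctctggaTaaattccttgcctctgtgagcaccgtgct
Hbb-bs: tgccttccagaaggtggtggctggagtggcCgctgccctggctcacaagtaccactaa
Hbb-bt: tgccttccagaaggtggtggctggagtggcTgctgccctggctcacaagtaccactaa
Of all 100-base windows of the Hba-a1 transcript, 56.5% also occurred in Hba-a2, and 74.5% of those of Hba-a2 occurred in Hba-a1. For Hbb-bs and Hbb-bt these shares were 62.6% and 54.8%. How reads that match both copies were counted is not given in the sources used here, so the split within each pair is uncertain. The summed levels do not depend on this split, but they too would lack any shared reads that were left uncounted.

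The alpha pair also shared its promoter. The 197 bases below end 4 bases before the RefSeq start of Hba-a2 (chr11:32296292-32296488, plus strand, GRCm38.p6), and the same 197 bases lie 3 bases nearer to the start of Hba-a1. Capitals mark GATAA, a sequence bound by GATA factors, then CCAAT and TATAA.
Hba-a2: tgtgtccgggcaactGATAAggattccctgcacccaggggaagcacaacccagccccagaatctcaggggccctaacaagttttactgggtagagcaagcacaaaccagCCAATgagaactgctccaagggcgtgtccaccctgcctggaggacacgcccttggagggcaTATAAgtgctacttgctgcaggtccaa
The beta genes held a CACCC box of the kind Klf1 binds, searched as CCNCNCCC on both strands. It lay 93 to 86 bases before the start of Hbb-bs and 107 to 100 bases before that of Hbb-bt. In the lines below, capitals mark the box, with 30 bases shown for each gene (chr7:103828003-103828032 and chr7:103814012-103814041, minus strand, GRCm38.p6).
Hbb-bs: attccgtagagCCACACCCtggtaagggcc
Hbb-bt: catctctgaagCCTCACCCtgcagggtaac
Over the 200 bases before the start, with either strand counted, 18.4% of 27025 mouse promoters in RefSeq held GATAA, 42.2% held CCNCNCCC, 30.0% held CCAAT and 19.3% held TATAA. Of the 7 red cell genes with a promoter in that set, 5 held GATAA, 4 held CCNCNCCC, 5 held CCAAT and 4, the globin genes, held TATAA. A match describes these letters and does not show a bound site.

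Globin mRNA was abundant in every tumour, spread widely between tumours of both groups, and did not separate MKO_PD1 from Cre_PD1. The 4 adult globin genes together took 2856, 2982 and 1699 TPM in MKO_PD1 replicates 1, 2 and 3, against 4468, 3378 and 1117 TPM in Cre_PD1. Both the highest and the lowest tumour were Cre_PD1, and all 3 MKO_PD1 tumours lay between them. The means were 2513 ± 707 TPM in MKO_PD1 and 2988 ± 1709 TPM in Cre_PD1, a difference of -475 TPM that was 554 TPM with median-of-ratios scaling, and either value is smaller than the SD of the Cre_PD1 tumours. The globins amounted to 0.286, 0.298 and 0.170% of TPM in MKO_PD1, against 0.447, 0.338 and 0.112% in Cre_PD1.

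Hbb-bs, the main beta globin gene here, was at 1829, 1870 and 1058 TPM in MKO_PD1, against 2768, 2165 and 672 TPM in Cre_PD1. It ranked 66th, 58th and 118th among all genes in MKO_PD1, against 41st, 57th and 185th in Cre_PD1. The groups overlapped, with a log2 difference of -0.05 (SE 0.56, limma adjusted p = 0.950). Hba-a1, the main alpha globin gene here, was at 842, 923 and 534 TPM in MKO_PD1, against 1381, 926 and 383 TPM in Cre_PD1. It overlapped in the same way, with a log2 difference of -0.08 (SE 0.49, limma adjusted p = 0.911).

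The second copies were much lower in every library, on reads whose split within the pairs is uncertain. Hbb-bt was at 119, 134 and 74.1 TPM in MKO_PD1, against 224, 231 and 45.4 TPM in Cre_PD1. Hba-a2 was at 66.7, 55.5 and 32.8 TPM in MKO_PD1, against 95.0, 56.7 and 15.9 TPM in Cre_PD1. Both overlapped between the groups, with log2 differences of -0.33 (SE 0.61, limma adjusted p = 0.701) for Hbb-bt and 0.15 (SE 0.61, limma adjusted p = 0.859) for Hba-a2. Depth does not limit these values, since even Hba-a2 had 93 to 644 reads per library.

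The ratio of alpha to beta globin varied far less than the globin level itself. The ratio of summed alpha to summed beta globin TPM was 0.466, 0.488 and 0.501 in MKO_PD1, against 0.493, 0.410 and 0.556 in Cre_PD1. It thus lay within 0.410 to 0.556 while the globin sum itself varied from 1117 to 4468 TPM. Within the pairs, Hba-a1 exceeded Hba-a2 by 12.6, 16.6 and 16.3 times in MKO_PD1, against 14.5, 16.3 and 24.1 times in Cre_PD1. Hbb-bs exceeded Hbb-bt by 15.4, 13.99 and 14.3 times in MKO_PD1, against 12.4, 9.37 and 14.8 times in Cre_PD1. These ratios do not depend on the scaling, and those within pairs rest on the uncertain split of shared reads. The alpha to beta ratio also depends on whether shared reads were counted at all.

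**Figure D1:**
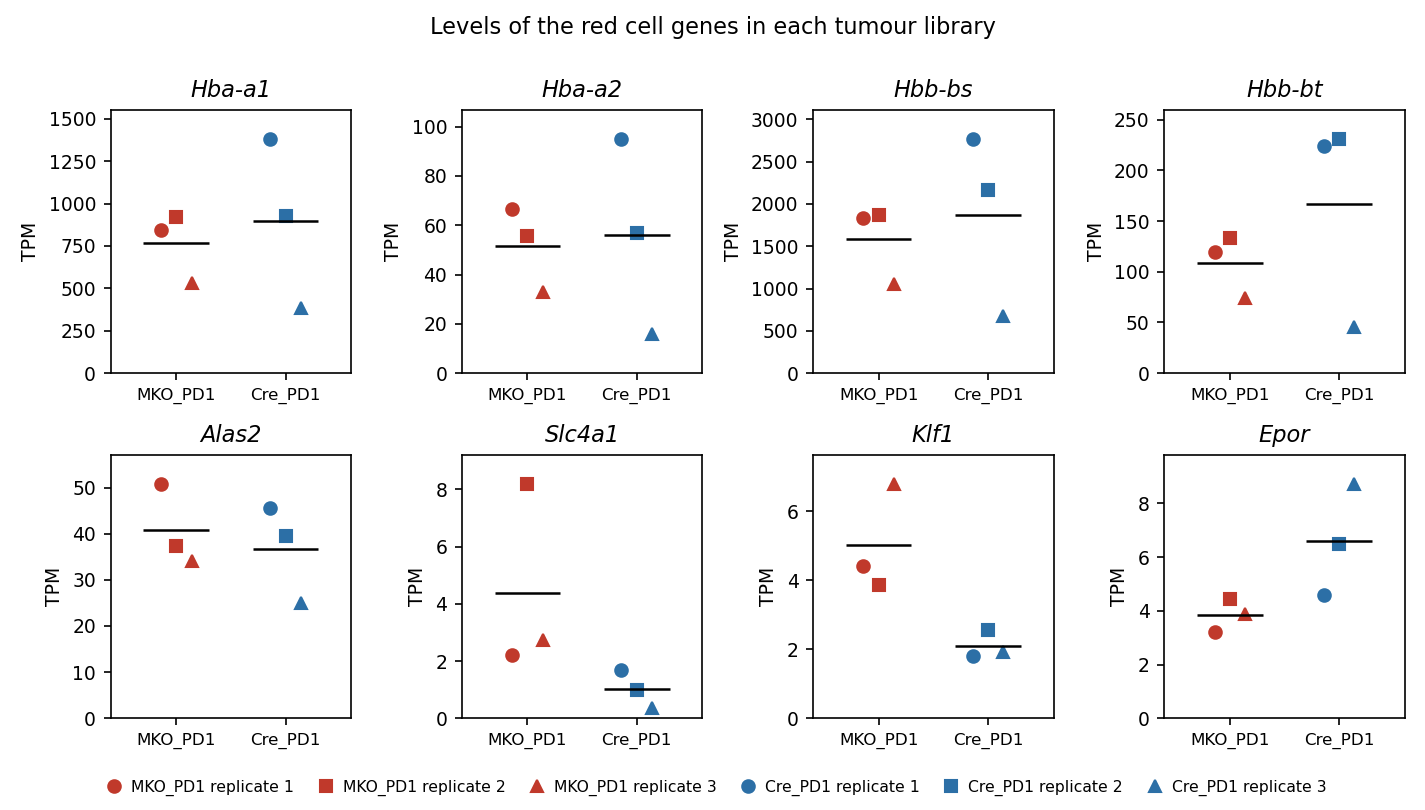
Level of each of the 8 red cell genes in TPM (vertical axes, each from 0) in the 3 MKO_PD1 tumours (red) and the 3 Cre_PD1 tumours (blue), with 1 symbol per replicate and a line at the group mean. The globin genes and Alas2 overlapped between the groups, Slc4a1 and Klf1 were higher in all 3 MKO_PD1 tumours and Epor was lower in all 3.

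The genes fell into a clear order of level. Hbb-bs was the highest and Hba-a1 the next in all 6 libraries, and Hbb-bt followed. Hba-a2 was above Alas2 in 4 libraries and below it in MKO_PD1 replicate 3 and Cre_PD1 replicate 3. Epor, Klf1 and Slc4a1 were all under 9 TPM.

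The globin genes moved together from tumour to tumour. Over the 6 libraries, Pearson's r of log2(TPM + 1) was 0.989 between Hba-a1 and Hbb-bs, genes of different chromosomes. It was 0.973 within the alpha pair and 0.968 within the beta pair, values that shared reads can raise if they were counted. Each gene had its lowest level in Cre_PD1 replicate 3 and the next lowest in MKO_PD1 replicate 3. The highest library exceeded the lowest by 3.60 times for Hba-a1, 4.12 times for Hbb-bs, 5.08 times for Hbb-bt and 5.97 times for Hba-a2. These correlations are descriptions over 6 libraries that differ in tissue content.

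Alas2 (ENSMUSG00000025270.13, chromosome X, 150547375 to 150570638, plus strand), the red cell form of the enzyme that starts haem synthesis, followed the globins. It was at 50.7, 37.4 and 34.04 TPM in MKO_PD1, against 45.5, 39.6 and 25.1 TPM in Cre_PD1. The groups overlapped, with means of 40.7 ± 8.83 TPM in MKO_PD1 and 36.7 ± 10.5 TPM in Cre_PD1 and a log2 difference of 0.17 (SE 0.31, limma adjusted p = 0.699). Its r with the globin genes ran from 0.757 to 0.932 over the 6 libraries, and its range was narrower, 2.02 times from lowest to highest. Its promoter held a GATAA on the opposite strand, read as TTATC and marked by capitals in the 30 bases below, 86 to 82 bases before the start (chrX:150547318-150547347, plus strand, GRCm38.p6).
Alas2: actactttgctttTTATCtttagcagaggc

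Among 13131 other protein-coding genes, those whose log2 level was most like the globin mean over the 6 libraries included a known red cell gene, Bpgm (r = 0.950), the enzyme that makes the red cell regulator of oxygen release. Bpgm was at 14.7, 16.4 and 14.1 TPM in MKO_PD1, against 17.9, 18.03 and 11.0 TPM in Cre_PD1. The groups overlapped, with a log2 difference of -0.02 (limma adjusted p = 0.958). Genes of no stated red cell role with like values were Ttc32 (r = 0.974), Sprr2b (0.952), Tmem202 (0.904), Mpp6 (0.895), Churc1 (0.887) and Rps27l (0.877). Sprr2b and Tmem202 had few reads, at most 16 and 31 in a library.

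**Figure D2:**
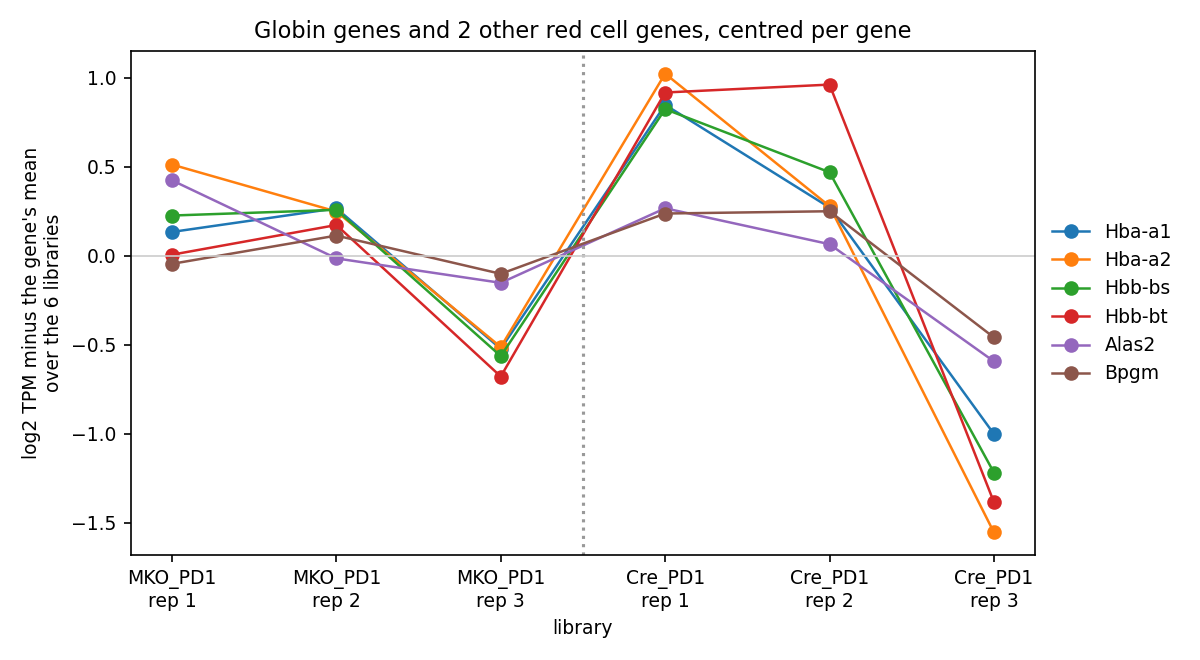
Log2 TPM of the 4 globin genes, Alas2 and Bpgm in each library (horizontal axis, MKO_PD1 left of the dotted line and Cre_PD1 right of it), after subtracting each gene's mean over the 6 libraries. The 6 genes share a profile whose lowest point is Cre_PD1 replicate 3, and Alas2 and Bpgm vary less than the others.

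Slc4a1 did not follow the globins. This gene (ENSMUSG00000006574.15, chromosome 11, 102348824 to 102366203, minus strand) encodes band 3, the anion exchanger that anchors the red cell skeleton to the membrane. It was at 2.20, 8.18 and 2.75 TPM in MKO_PD1, against 1.69, 1.004 and 0.373 TPM in Cre_PD1. All 3 MKO_PD1 tumours lay above all 3 Cre_PD1 tumours, with MKO_PD1 replicate 2 far above the rest. The means were 4.38 ± 3.31 TPM in MKO_PD1 and 1.02 ± 0.658 TPM in Cre_PD1, from 683 reads in all in MKO_PD1 and 159 in Cre_PD1. The log2 difference was 1.30 (SE 0.47, unadjusted p = 0.0238), which did not pass (limma adjusted p = 0.168; lowest 0.0826 and highest 0.410 among the alternatives). Without MKO_PD1 replicate 2 it was 0.83 (limma adjusted p = 0.0826), and from recovered reads with limma voom, which has no pseudocount of 1 TPM, it was 2.59 (adjusted p = 0.118). Its r with the globin genes was between 0.214 and 0.401 over the 6 libraries, with both groups pooled. Within Cre_PD1, Slc4a1 fell from replicate 1 to 2 to 3, as the globin sum did.

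Of the 8 genes tested, 2 were higher in all 3 MKO_PD1 tumours, Slc4a1 and Klf1, and 1 was lower in all 3, Epor. Of all 16506 tested genes, 10.1% were separated upwards and 28.9% downwards in this way. With median-of-ratios scaling 2 of the 8 were separated upwards and 0 downwards, against 18.6% and 21.2% of all tested genes. None of the 8 passed the adjusted threshold of 0.05, also not with limma voom, against 0.0121% of all tested genes, which is 2 genes, 1 higher (0.00606%) and 1 lower (0.00606%). At an unadjusted p under 0.05, 2 were higher, again Slc4a1 and Klf1, and 0 lower, against 8.47% of all tested genes higher and 19.5% lower. The median log2 difference of the 8 genes was 0.05, against -0.42 for all tested genes. With median-of-ratios scaling these medians were 0.52 and -0.01.

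The other membrane and skeleton genes split. Of the 16 genes of this list, 5 were separated upwards (Cd59a, Rhd, Epb42, Kel and Ermap), 2 downwards (Add2 and Slc2a1), and 9 overlapped, against 7.12% upwards and 17.7% downwards among the 30804 genes with any reads. None of the 11 tested ones passed the adjusted threshold, 1 was higher and 2 lower at an unadjusted p under 0.05 (8.47% and 19.5% of all tested genes), and their median log2 difference was -0.37 (0.24 with median-of-ratios scaling, where 7 were separated upwards and 2 downwards, against 13.1% and 13.0% of all genes with any reads). In the fit without MKO_PD1 replicate 2, 2 of 11 passed upwards, Cd59a and Aqp1, and 2 downwards, Add2 and Slc2a1, against 7.88% upwards and 38.0% downwards of all tested genes. The 2 separated downwards, and Cd59a, are active well beyond red cells. Add2, beta adducin of the membrane skeleton, was at 2.44, 14.4 and 15.8 TPM in MKO_PD1, against 42.8, 26.7 and 40.2 TPM in Cre_PD1 (log2 difference -1.94, limma adjusted p = 0.168). Slc2a1, the glucose transporter Glut1, was at 38.5, 220.3 and 173 TPM in MKO_PD1, against 439, 277 and 247 TPM in Cre_PD1 (-1.44, limma adjusted p = 0.178). Cd59a, an inhibitor of complement on many cells, was at 61.6, 32.0 and 54.0 TPM in MKO_PD1, against 7.88, 21.1 and 20.98 TPM in Cre_PD1 (1.57, limma adjusted p = 0.168). Rhd, the Rhesus blood group protein, was lower in level, at 1.29, 2.76 and 1.54 TPM in MKO_PD1, against 0.247, 0.993 and 1.15 TPM in Cre_PD1 (0.68, limma adjusted p = 0.207).

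Several membrane and skeleton genes did not share the pattern of Slc4a1. Ank1, the ankyrin that ties band 3 to spectrin, was at 0.141, 1.72 and 0.762 TPM in MKO_PD1, against 2.55, 1.14 and 1.92 TPM in Cre_PD1. Its groups overlapped, with a log2 difference of -0.67 (SE 0.39, limma adjusted p = 0.247). Sptb, beta spectrin, and Rhag, the Rhesus-associated glycoprotein, overlapped too, with log2 differences of -0.37 (limma adjusted p = 0.408) and -0.49 (limma adjusted p = 0.420). Epb42 was separated upwards as Slc4a1 was, and Gypc and Epb41 were so only with median-of-ratios scaling.

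Klf1 (ENSMUSG00000054191.8, chromosome 8, 84901928 to 84905291, plus strand) encodes the erythroid Krüppel-like factor, which binds CACCC boxes of the adult beta globin promoter and of many other red cell genes. It was at 4.42, 3.85 and 6.78 TPM in MKO_PD1, against 1.80, 2.55 and 1.93 TPM in Cre_PD1. The groups did not overlap, and the means were 5.02 ± 1.55 TPM in MKO_PD1 and 2.09 ± 0.403 TPM in Cre_PD1. The libraries held 89, 59 and 110 reads in MKO_PD1, against 28, 47 and 26 in Cre_PD1. The log2 difference was 0.94 (SE 0.31, unadjusted p = 0.0159), which did not pass (limma adjusted p = 0.168; lowest 0.0309 and highest 0.410 among the alternatives). Without MKO_PD1 replicate 2 it was 1.08 and passed (limma adjusted p = 0.0309), in a fit where 7.88% of 15940 tested genes passed upwards and 38.0% downwards. Its r with the globin genes was between -0.239 and -0.0365, and the tumour with the highest Klf1, MKO_PD1 replicate 3, had the second lowest globin sum. Its promoter held a GATAA on the opposite strand, marked by capitals as TTATC in the 30 bases below, 80 to 76 bases before the start (chr8:84901889-84901918, plus strand, GRCm38.p6).
Klf1: ctttgcctgggtcTTATCagggaagacagc

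Several factors that act with Klf1 in red cell precursors were low in level and higher in all 3 MKO_PD1 tumours. Gata1, which binds GATA sites such as those shown above, had 31, 39 and 37 reads in MKO_PD1, against 8, 9 and 7 in Cre_PD1. It was at 1.34 ± 0.327 TPM in MKO_PD1 and 0.319 ± 0.0105 TPM in Cre_PD1, without overlap, and stayed under the filter for testing. Nfe2, a leucine zipper factor of red cell precursors and megakaryocytes, was at 4.98, 5.26 and 5.25 TPM in MKO_PD1, against 1.19, 1.87 and 1.15 TPM in Cre_PD1. It had the smallest unadjusted p of the list (0.00110), with a log2 difference of 1.37 (SE 0.28) that did not pass (limma adjusted p = 0.168), and without MKO_PD1 replicate 2 it was 1.36 and passed (limma adjusted p = 0.0290). Tal1, a partner of Gata1, was at 1.88, 4.50 and 3.00 TPM in MKO_PD1, against 1.03, 1.52 and 1.17 TPM in Cre_PD1 (0.84, SE 0.32, limma adjusted p = 0.168), again without overlap. Gfi1b, a repressor that both red cell precursors and megakaryocytes need, had 8, 21 and 12 reads in MKO_PD1, against 0, 2 and 1 in Cre_PD1.

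Of the 14 transcription factor genes other than Klf1, 5 were separated upwards (Nfe2, Tal1, Sox6, Gata1 and Gfi1b), 2 downwards (Zfpm1 and Ldb1) and 7 overlapped, against 7.12% upwards and 17.7% downwards of all genes with any reads. With median-of-ratios scaling 8 were separated upwards and 1, Ldb1, downwards, against 13.1% and 13.0%. None of the 10 tested ones passed the adjusted threshold, 3 were higher and 2 lower at an unadjusted p under 0.05 (8.47% and 19.5% of all tested genes), and their median log2 difference was 0.04 (0.37 with median-of-ratios scaling). When MKO_PD1 replicate 2 was left out, 1 of 9 passed upwards, Nfe2, and 2 downwards, Ldb1 and Zbtb7a, and of all tested genes 7.88% passed upwards and 38.0% downwards. Zfpm1, the Gata1 cofactor Fog1, was at 38.1, 58.4 and 63.4 TPM in MKO_PD1, against 79.9, 78.2 and 123 TPM in Cre_PD1 (log2 difference -0.80, limma adjusted p = 0.168). Ldb1, an adaptor that links Tal1 complexes in many cell types, was at 52.2, 98.4 and 70.7 TPM in MKO_PD1, against 116, 117 and 128 TPM in Cre_PD1 (-0.74, limma adjusted p = 0.168). Sox6, a factor with roles in red cells and in other tissues, was at 1.69, 1.12 and 1.72 TPM in MKO_PD1, against 0.245, 0.612 and 0.777 TPM in Cre_PD1 (0.71, limma adjusted p = 0.169). It reached 1 TPM in the 3 MKO_PD1 tumours and in 0 of the Cre_PD1 tumours, so it was tested only because of the group where it is high, and its difference and its place among the 3 higher genes support nothing.

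The low red cell genes were mixed, with 5 untested ones besides Gata1 and Gfi1b separated upwards as Slc4a1 was and others overlapping. Of all genes with any reads, 7.12% were separated upwards. The 5 were singled out after their values were seen, and they did not reach 1 TPM in 3 libraries, the filter for testing. Kel, the Kell blood group protease, had 19, 66 and 19 reads in MKO_PD1, against 5, 5 and 2 in Cre_PD1. Hemgn, the nuclear protein hemogen of blood precursors, had 18, 59 and 20 reads in MKO_PD1, against 4, 8 and 3 in Cre_PD1. Ermap, an erythroid membrane protein, had 41, 86 and 53 reads in MKO_PD1, against 16, 21 and 17 in Cre_PD1, and Epb42, the band 4.2 protein that binds band 3, had 11, 30 and 10 reads in MKO_PD1, against 5, 3 and 0 in Cre_PD1. Trim58, a ubiquitin ligase of late red cell precursors, had only 3, 9 and 3 reads in MKO_PD1, against 2, 0 and 0 in Cre_PD1. Each of these 5 genes was highest in MKO_PD1 replicate 2, as Slc4a1 was. Other low red cell genes, Tmod1, Cldn13, Tspo2 and Trim10, overlapped between the groups, as did Ank1, Sptb and Rhag above. With median-of-ratios scaling Trim10 was separated upwards, as were 13.1% of all genes with any reads. Reads carry no molecular identifiers, so these numbers hold counting error and amplification error alike.

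**Figure D3:**
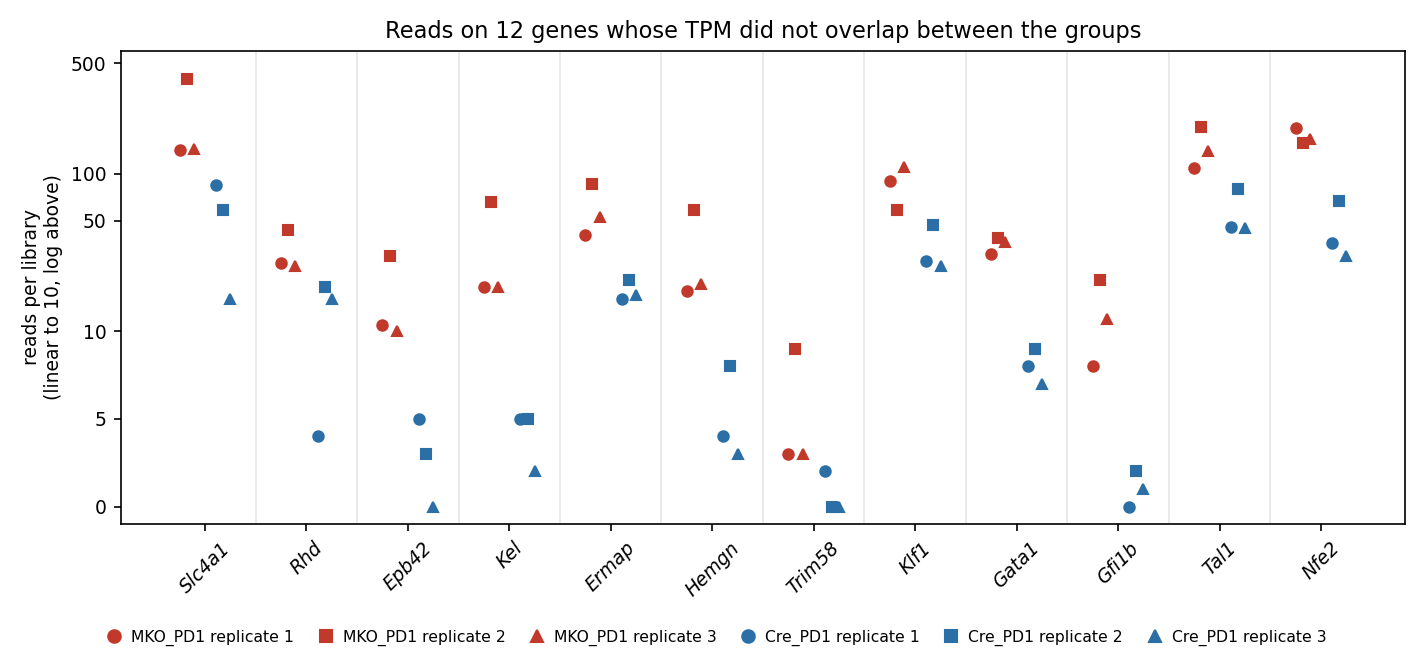
Reads per library (vertical axis, linear up to 10 and logarithmic above) of 12 red cell genes whose TPM did not overlap between the groups and was higher in MKO_PD1 (red, left in each column) than in Cre_PD1 (blue), with symbols for the replicates. The genes were chosen for this separation, so the picture is a description: Slc4a1 had 683 reads in MKO_PD1 and 159 in Cre_PD1, Gata1 had 107 in MKO_PD1 and 24 in Cre_PD1, and Kel had 104 in MKO_PD1 and 12 in Cre_PD1.

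The same tumours also differed in RNA of other cells. Platelet and megakaryocyte genes, which share Gata1, Tal1, Nfe2 and Gfi1b with the red cell lineage, summed to 123, 575 and 245 TPM in MKO_PD1, against 87.3, 184 and 105 TPM in Cre_PD1. Of these 12 genes 7 were separated upwards, among them Ppbp, Gp9, Gp5, Tubb1 and Treml1, and Gp1bb was at 0 in all libraries, against 7.12% of all genes with any reads separated upwards. Neutrophil genes summed to 1152 to 1648 TPM in MKO_PD1 and 303 to 581 TPM in Cre_PD1, with 9 of 14 separated upwards, against the same 7.12%. The neutrophil precursor genes Elane (10.7, 31.9 and 10.3 TPM in MKO_PD1, against 1.70, 5.42 and 2.78 TPM in Cre_PD1) and Mpo (4.08, 15.6 and 5.41 TPM in MKO_PD1, against 1.005, 1.85 and 1.70 TPM in Cre_PD1) were among these 9. Prtn3, another granule gene among them, was at 212, 67.1 and 110 TPM in MKO_PD1, against 11.0, 29.5 and 31.4 TPM in Cre_PD1. Lcn2 was at 639, 347 and 647 TPM in MKO_PD1, against 303, 307 and 154 TPM in Cre_PD1. Prtn3 and Lcn2 were lowest in replicate 2 within MKO_PD1, and the other neutrophil genes were highest in it. The sums of the platelet and neutrophil lists were highest in MKO_PD1 replicate 2. Hepatocyte genes took 15.7, 3.82 and 11.1% of TPM in MKO_PD1, against 1.48, 2.97 and 3.14% in Cre_PD1, with 17 of 20 separated upwards (10.1% of all tested genes), and were lowest in MKO_PD1 replicate 2 within that group. The part of any of these in the differences of Slc4a1, Klf1 and the low red cell genes was not tested.

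Set against the globin level of the same tumour, the membrane gene Slc4a1 was again without overlap between the groups. Slc4a1 amounted to 0.770, 2.74 and 1.62 TPM per 1000 TPM of globins in MKO_PD1, against 0.378, 0.297 and 0.334 in Cre_PD1. The ratio of the means was 5.08, and 3.54 without MKO_PD1 replicate 2. The 3 Cre_PD1 values lay within 0.297 to 0.378, although the globin sums of these tumours ran from 1117 to 4468 TPM.

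Gata1 was also without overlap on this measure, at 0.340, 0.537 and 0.845 TPM per 1000 TPM of globins in MKO_PD1, against 0.0722, 0.0910 and 0.293 in Cre_PD1. So was Nfe2, at 1.74, 1.76 and 3.09 in MKO_PD1, against 0.265, 0.553 and 1.03 in Cre_PD1. Kel did not overlap either, at 0.183, 0.799 and 0.381 in MKO_PD1, against 0.0397, 0.0444 and 0.0737 in Cre_PD1, a ratio of the means of 8.64 that was 5.36 without MKO_PD1 replicate 2. Hemgn and Epb42 were also without overlap, and Epb42 had no read in Cre_PD1 replicate 3. Klf1, Tal1, Ermap and Epor overlapped. Klf1 was at 1.55, 1.29 and 3.99 TPM per 1000 TPM of globins in MKO_PD1, against 0.402, 0.755 and 1.73 in Cre_PD1. Alas2 overlapped as well, at 17.8, 12.5 and 20.03 in MKO_PD1, against 10.2, 11.7 and 22.5 in Cre_PD1, and so did Bpgm. These ratios do not depend on the scaling of the libraries, were set up after the levels were known and were not tested. Slc4a1, Gata1, Nfe2, Kel, Hemgn and Epb42 were already separated in TPM, so their separation here is not a further result. The share of all genes separated on this measure was not computed.

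**Figure D4:**
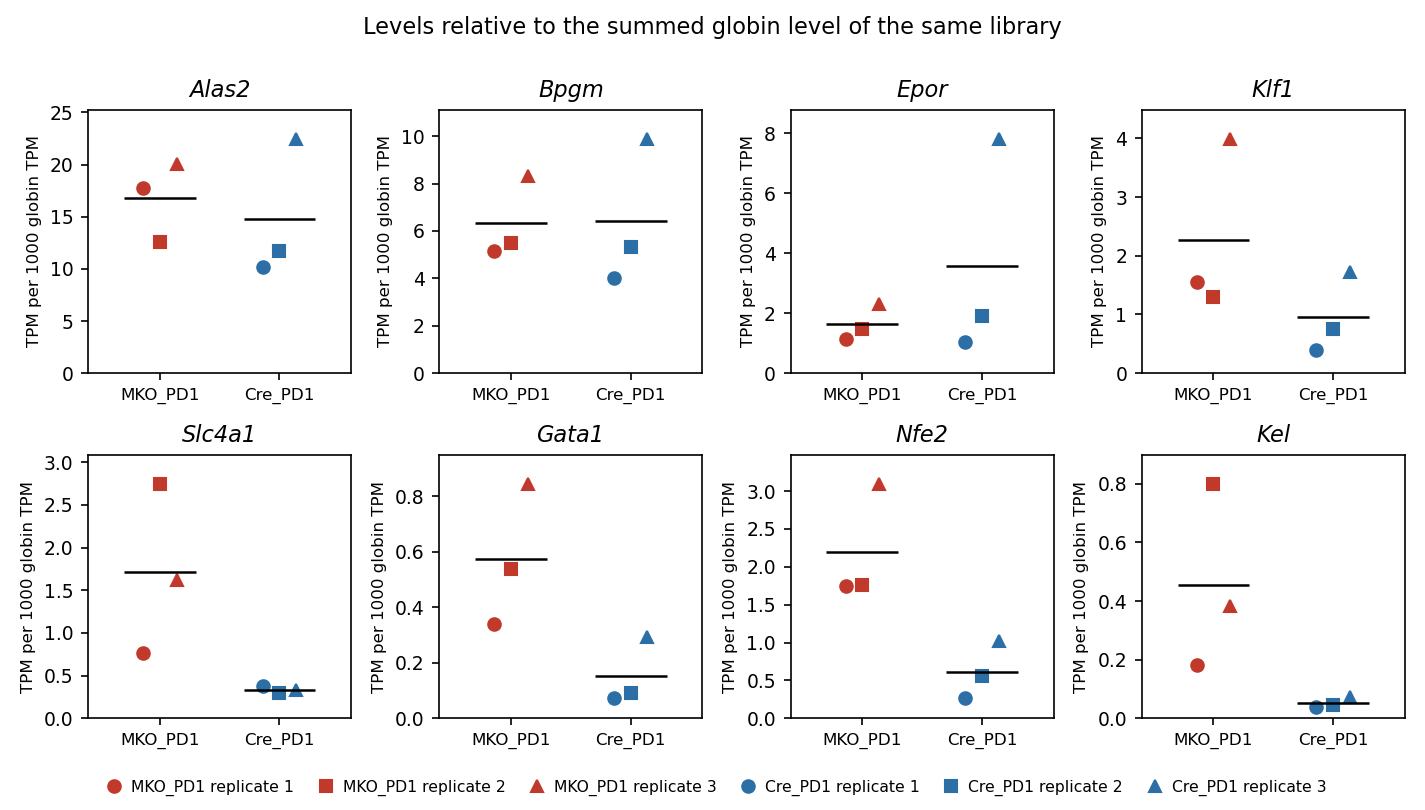
TPM per 1000 TPM of summed globins in the same library (vertical axes, from 0) for 8 red cell genes, with 1 symbol per tumour, MKO_PD1 (red) left of Cre_PD1 (blue) and a line at the group mean. The 4 genes of the upper row overlapped, and the 4 of the lower row, Slc4a1, Gata1, Nfe2 and Kel, were higher in all 3 MKO_PD1 tumours. Those 4 were already separated in TPM, and the share of all genes separated on this measure was not computed.

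Epor went the other way. Epor (ENSMUSG00000006235.6, chromosome 9, 21958897 to 21963506, minus strand) encodes the erythropoietin receptor, through which red cell precursors receive their survival signal, and it is also transcribed at a low level in other cells. It was at 3.22, 4.43 and 3.90 TPM in MKO_PD1, against 4.599, 6.49 and 8.72 TPM in Cre_PD1. All 3 MKO_PD1 tumours lay below all 3 Cre_PD1 tumours, with means of 3.85 ± 0.605 TPM in MKO_PD1 and 6.60 ± 2.06 TPM in Cre_PD1. The log2 difference was -0.62 (SE 0.32) and did not pass (limma adjusted p = 0.212), and 28.9% of all tested genes were separated downwards. With median-of-ratios scaling the groups overlapped and the log2 difference was -0.22 (limma adjusted p = 0.555). The tumour with the highest Epor, Cre_PD1 replicate 3, had the lowest globin, Alas2 and Slc4a1 levels of all 6. Its promoter held a GATAA on the opposite strand, TTATC in capitals below, 54 to 50 bases before the start (chr9:21963614-21963643, minus strand, GRCm38.p6).
Epor: tggtggctgtagcTTATCtgtccccagcct

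The erythropoietin pathway around the receptor showed no common direction. Of 14 genes measured, 2 were separated upwards (Kit and Ptpn6), 2 downwards (Erfe and Bcl2l1) and 10 overlapped, against 7.12% upwards and 17.7% downwards of all genes with any reads. With median-of-ratios scaling 5 were separated upwards and 1 downwards, against 13.1% and 13.0%. None of the 13 tested ones passed the adjusted threshold, 0 were higher and 2 lower at an unadjusted p under 0.05 (8.47% and 19.5% of all tested genes), and their median log2 difference was -0.11 (0.36 with median-of-ratios scaling). When MKO_PD1 replicate 2 was left out, 0 of 13 passed upwards and 3 downwards, Bcl2l1, Jak2 and Socs3, against 7.88% and 38.0% of all tested genes. Epo, the hormone gene, had 23, 4 and 3 reads in MKO_PD1, against 5, 2 and 1 in Cre_PD1. Erfe, which encodes erythroferrone, a hormone that red cell precursors make in response to erythropoietin, was at 0.704, 1.67 and 3.90 TPM in MKO_PD1, against 4.51, 6.54 and 13.0 TPM in Cre_PD1. This separation (log2 difference -1.57, SE 0.49, limma adjusted p = 0.168) was an overlap with median-of-ratios scaling, at a log2 difference of -1.23. The tumour with the highest Erfe, Cre_PD1 replicate 3, was again the one with the lowest globin sum. Bcl2l1, a survival gene downstream of the receptor and active in many cells, was at 27.9, 68.7 and 49.2 TPM in MKO_PD1, against 125, 83.6 and 74.2 TPM in Cre_PD1 (-0.998, limma adjusted p = 0.168). The stem cell factor receptor Kit was at 4.07, 5.76 and 4.50 TPM in MKO_PD1, against 2.06, 2.86 and 3.19 TPM in Cre_PD1 (0.64, limma adjusted p = 0.185). The receptor's kinase Jak2 overlapped (-0.93, limma adjusted p = 0.203).

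Of the 13 haem synthesis genes other than Alas2, many are used by hepatocytes as well as by red cells. Of these 13 genes, 6 were separated upwards (Alas1, Alad, Fech, Cpox, Uros and Tmem14c), 1 downwards (Ppox) and 6 overlapped, against 7.12% upwards and 17.7% downwards of all genes with any reads. None of the 12 tested ones passed the adjusted threshold, 3 were higher and 1 lower at an unadjusted p under 0.05 (8.47% and 19.5% of all tested genes), and their median log2 difference was 0.28 (0.75 with median-of-ratios scaling). With MKO_PD1 replicate 2 left out, 2 of 12 passed upwards, Alas1 and Fech, and 1 downwards, Ppox, against 7.88% and 38.0% of all tested genes. Alas1, the form of the first enzyme that the liver uses, was at 166, 135 and 178 TPM in MKO_PD1, against 32.1, 80.7 and 80.9 TPM in Cre_PD1 (log2 difference 1.40, SE 0.38, limma adjusted p = 0.168). The liver form was thus without overlap where the red cell form Alas2 overlapped. Alad, the second enzyme, was at 135, 79.6 and 86.9 TPM in MKO_PD1, against 34.1, 66.6 and 64.5 TPM in Cre_PD1 (0.88, limma adjusted p = 0.169). Fech, which inserts the iron, was at 23.2, 16.1 and 18.9 TPM in MKO_PD1, against 10.7, 11.7 and 13.7 TPM in Cre_PD1 (0.63, limma adjusted p = 0.176). Ppox, the last enzyme but one, was at 19.4, 36.4 and 27.5 TPM in MKO_PD1, against 55.1, 42.9 and 47.8 TPM in Cre_PD1 (-0.82, limma adjusted p = 0.168). The hepatocyte sums given above were also higher in all 3 MKO_PD1 tumours, and their part in these values was not tested.

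Late red cell maturation involves many genes that other cells use too. Of 15 such genes, 2 were separated upwards (Hemgn and Trim58), 3 downwards (Cd24a, Ube2o and Bnip3l) and 10 overlapped, with Icam4 at 0 in every library. Of all genes with any reads 7.12% were separated upwards and 17.7% downwards. None of the 10 tested ones passed the adjusted threshold, 0 were higher and 3 lower at an unadjusted p under 0.05 (8.47% and 19.5% of all tested genes), and their median log2 difference was -0.72 (-0.26 with median-of-ratios scaling, where 4 were separated upwards and 2 downwards, against 13.1% and 13.0% of all genes with any reads). Without MKO_PD1 replicate 2, 0 of 10 passed upwards and 5 downwards, Cd24a, Ube2o, Bnip3l, Car2 and Tfrc, while 38.0% of all tested genes passed downwards and 7.88% upwards. Cd24a, a surface protein of red cell precursors and of liver tumour cells, was at 56.8, 303 and 190 TPM in MKO_PD1, against 529, 456 and 385 TPM in Cre_PD1 (log2 difference -1.60, limma adjusted p = 0.168). Ube2o, a ubiquitin ligase that clears ribosomes in reticulocytes, was at 9.26, 21.9 and 17.4 TPM in MKO_PD1, against 37.2, 25.4 and 30.8 TPM in Cre_PD1 (-0.96, limma adjusted p = 0.168). Bnip3l, which removes mitochondria, was at 65.1, 133 and 101 TPM in MKO_PD1, against 199, 159 and 144 TPM in Cre_PD1 (-0.78, limma adjusted p = 0.169). Car1, a carbonic anhydrase of red cells, was at 3.42, 7.78 and 3.03 TPM in MKO_PD1, against 0.631, 3.87 and 1.19 TPM in Cre_PD1, with overlap (1.06, limma adjusted p = 0.190). Tumour epithelium genes summed to 1435 to 4631 TPM in MKO_PD1 and 7542 to 13810 TPM in Cre_PD1, with 5 of 8 separated downwards (28.9% of all tested genes). Their part in these differences was not tested.

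Embryonic and minor globin genes were almost silent. Hba-x, Hbb-y and Hbb-bh2 were listed at 0 in all 6 libraries, and Hbb-bh1 had 1 read, in Cre_PD1 replicate 3. Hbq1a, a theta globin gene, had 2, 2 and 0 reads in MKO_PD1, against 1, 1 and 0 in Cre_PD1. Hbq1b, its neighbour copy, had 3, 5 and 2 reads in MKO_PD1, against 5, 5 and 0 in Cre_PD1. The globin RNA measured here is thus that of the adult genes.

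Free haemoglobin and haem are cleared by plasma proteins of the liver and by macrophages. Of 10 genes of this clearance, 5 were separated upwards (Slc40a1, Spic, Hp, Hpx and Hmox1), 0 downwards and 5 overlapped, against 10.1% upwards and 28.9% downwards of all tested genes. None passed the adjusted threshold, 4 were higher and 0 lower at an unadjusted p under 0.05 (8.47% and 19.5% of all tested genes), and their median log2 difference was 0.83 (1.27 with median-of-ratios scaling). Without MKO_PD1 replicate 2, 5 of 10 passed upwards, Slc40a1, Spic, Hp, Hpx and Cd163, against 7.88% of all tested genes. Hp, haptoglobin, the plasma protein that binds free haemoglobin, was at 17410, 5934 and 13720 TPM in MKO_PD1, against 3272, 5124 and 3741 TPM in Cre_PD1 (log2 difference 1.499, limma adjusted p = 0.168). Hpx, hemopexin, which binds free haem, was at 24540, 5925 and 17530 TPM in MKO_PD1, against 3873, 5831 and 4417 TPM in Cre_PD1 (1.56, limma adjusted p = 0.168), and overlapped with median-of-ratios scaling. Both are made by hepatocytes, and both were lowest, among the MKO_PD1 tumours, in replicate 2, which also had the lowest hepatocyte share of that group. The part of hepatocyte RNA in these values was not tested.

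Genes of this clearance that macrophages use split into separated and overlapping ones. Slc40a1, ferroportin, through which macrophages release the iron of old red cells, was at 92.5, 39.4 and 83.8 TPM in MKO_PD1, against 22.8, 28.9 and 29.4 TPM in Cre_PD1 (log2 difference 1.30, SE 0.36, limma adjusted p = 0.168). Spic, the factor of red pulp and other iron-recycling macrophages, was at 9.79, 4.82 and 8.30 TPM in MKO_PD1, against 2.20, 4.23 and 3.00 TPM in Cre_PD1 (1.04, SE 0.35, limma adjusted p = 0.168). Both passed without MKO_PD1 replicate 2, at 1.68 for Slc40a1 and 1.30 for Spic (limma adjusted p = 0.0290 for each). Hmox1, the haem oxygenase that opens the haem ring, was at 339, 438 and 395 TPM in MKO_PD1, against 303, 278 and 211 TPM in Cre_PD1 (0.57, SE 0.27, limma adjusted p = 0.190). Cd163, the macrophage receptor for haptoglobin with haemoglobin (1.26, limma adjusted p = 0.194), Lrp1, a receptor for hemopexin with haem (0.61, limma adjusted p = 0.182), and the biliverdin reductases Blvra (-0.11, limma adjusted p = 0.763) and Blvrb (0.204, limma adjusted p = 0.529) overlapped, as did the haem transporter Slc48a1 (-0.26, limma adjusted p = 0.481). Kupffer cell genes, a list that holds Slc40a1 itself, summed to 2589, 564 and 1690 TPM in MKO_PD1, against 279, 638 and 618 TPM in Cre_PD1, overlapping through MKO_PD1 replicate 2. General macrophage genes summed to 3130, 6377 and 3341 TPM in MKO_PD1, against 2512, 3321 and 3442 TPM in Cre_PD1, with overlap. The part of either list in these values was not tested.

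**Figure D5:**
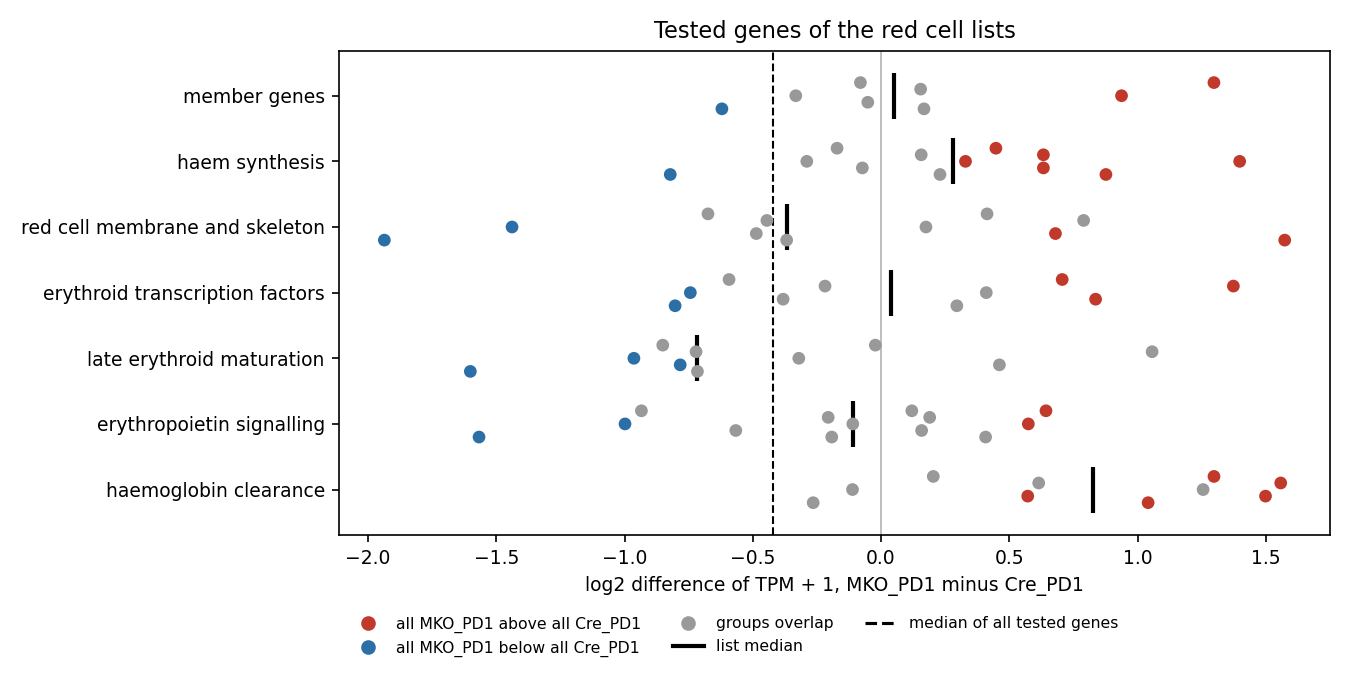
Log2 difference of TPM + 1, MKO_PD1 minus Cre_PD1 (horizontal axis), of each tested gene of the red cell lists (rows), with red points where all MKO_PD1 tumours lay above all Cre_PD1 tumours, blue points where they lay below and grey points where the groups overlapped. List medians (black bars) ran from -0.72 for late maturation to 0.83 for haemoglobin clearance, against a median of -0.42 for all tested genes (dashed line), and no gene shown passed the adjusted threshold.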

How the data were processed

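Polyadenylated RNA of 6 liver tumours was sequenced, 3 per group. Per the submitters' processing notes, the tools were STAR 2.7.10a and featureCounts 2.0.3 of Subread, with build mm10. The deposited table holds a length-normalised read signal: it is named as TPM, the unit the tests were planned for, but its column sums ran from 70363 to 105281. Multiplied by GENCODE M21 exon lengths and divided by 1 shared constant (8.028), the values gave whole reads, within 0.001 reads in all libraries, for 98.5% of 29802 genes with a length and a value. Klf1 gave whole reads with 1534 exon bases, against 1530 in M21, and those reads are printed.

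Each library was rescaled to 1000000, and log2(TPM + 1) was tested with limma 3.58.1 (R 4.3.3, mean-variance trend, no covariate). Alternatives changed the pseudocount (0.1), filter, scaling, test, replicate block and each library left out. Same-numbered replicates did not deviate together (r = -0.42, -0.27 and 0.05), and the main fit used no pairing. With 3 libraries per group these values cannot exclude a pairing. Nothing in the labels ties a library to a batch. The genes and lists were chosen with earlier results of these data known. The list counts cover the members with a value in the table; some genes are not reported here and are left out. Those named are the 4 with the smallest unadjusted p and any in a count of 5 or fewer; others were chosen after their values were seen. Groups are called separated where all values of one lie above all of the other.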

Additional observations from a re-analysis of the deposited data

How the results depend on the processing

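The number of genes past the adjusted threshold was 2, again 2 with a pseudocount of 0.1 and 3 as deposited. It was 0 without a filter, 0 with a filter at 5 TPM, 1 with median-of-ratios scaling, 0 with limma voom on recovered reads and 0 with the replicate block, while 5080, 3752, 5037, 4722 and 3279 genes had an unadjusted limma p under 0.05 in these fits, and it ran from 0 to 7314 with each library left out. The 7314 came without MKO_PD1 replicate 2; the cause was not tested. The globin sum difference of -475 TPM ran from -1411 to 265 TPM with each library left out. Log2 differences of the globin genes had no stable sign. Hba-a1 (-0.08) was 0.40 with median-of-ratios scaling, 0.044 as deposited and 0.45 with voom, and ran from -0.60 to 0.32 with each library left out. Hbb-bs (-0.05) was 0.43, 0.073 and 0.49 in these fits, and -0.67 to 0.35. Hbb-bt (-0.33) was 0.14 with median-of-ratios scaling and 0.11 with voom, and -1.10 to 0.062. Hba-a2 (0.15) was 0.62 with median-of-ratios scaling, 0.27 as deposited and 0.58 with voom, and ran from -0.56 to 0.69 with each library left out. Alas2 (0.17) was 0.64, 0.29 and 0.63 in these fits, and -0.078 to 0.34. Slc4a1, Klf1 and Epor kept their direction in all 12 alternatives in which they could be fitted, which do not include the filter at 5 TPM. With the replicate block their log2 differences were 1.30, 0.94 and -0.62 (limma adjusted p = 0.227, 0.250 and 0.358), and the block changed no call among the 8 genes.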
